A study of Mus musculus with 11 samples.

Results

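Tumours given palbociclib together with OPG-Fc were compared with tumours given vehicle, using 5 of the 11 libraries in the series. The 3 combination libraries and the 2 vehicle libraries were chosen by their treatment labels alone. All tumours grew from 4T1 cells, a wild-type mouse mammary carcinoma line used to model triple-negative breast cancer, which were injected in matrigel under the skin of both flanks. Treatment began once tumours measured about 100 mm3 and lasted 12 days. Combination tumours received OPG-Fc intraperitoneally at 10 mg/kg, 3 times a week, plus oral palbociclib, whose dose is spelled out only for palbociclib alone (30 mg/kg per day). Vehicle tumours received sodium lactate, corn oil and DMSO, and their titles call them untreated. Another 3 palbociclib tumours and 3 OPG-Fc tumours entered the fit and are shown beside the results. The hosts are described as NSG mice, which lack mature T, B and NK cells, whereas the series title calls the model syngeneic. Each tumour counted as 1 replicate. The labels do not tie tumours to animals, and combination replicates 1 and 2 share the first number of their column names, so the p-values reflect only how far these particular tumours spread.

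Palbociclib inhibits the kinases CDK4 and CDK6. These kinases, together with D-type cyclins, phosphorylate the retinoblastoma protein and release E2F factors, which switch on genes for DNA replication. OPG-Fc is a fusion of osteoprotegerin, the decoy receptor that captures RANKL (Tnfsf11) and keeps it from its receptor RANK (Tnfrsf11a). RANK signals through TRAF6 and NF-kB, is best known from osteoclast formation, and also acts in mammary epithelium.

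The values are FPKM, from poly(A)-selected RNA: fragment numbers divided by the transcript's length and by the library's mapped total. Of 17181 genes, 12376 had an FPKM of at least 1 in 2 or more of the 5 libraries and were tested. No read counts are given, so the depth is unknown. Differences are on the log2(FPKM + 1) scale, combination minus vehicle, with standard errors from limma, and a gene was called where its p, adjusted over all tested genes by the Benjamini-Hochberg method, was under 0.05. The statement that all 3 combination values lay above or below both vehicle values is a description without a test. With 3 tumours against 2, an exact permutation test of a single value cannot go below a 2-sided p of 0.2.

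The 2 vehicle tumours were unlike each other, and much of what follows depends on which is used. Epcam, an epithelial adhesion molecule that marks the carcinoma cells, had FPKM values of 444, 356 and 463 in combination tumours, against 463 and 11.7 in vehicle replicates 1 and 2. Cd79a, a B cell receptor component, had 0.06, 0.72 and 3.36 in combination tumours, against 0.98 and 723 in vehicle replicates 1 and 2. Vehicle replicate 2 thus held abundant B cell RNA and little epithelial RNA. The 24 epithelial markers summed to an FPKM of 3883, 4222 and 4736 in combination tumours, against 3723 and 157 in vehicle replicates 1 and 2. The median absolute difference over all tested genes was 0.136 between combination replicates 1 and 2, which share the first number of their column names. It was 0.329 between combination replicates 1 and 3, 0.325 between combination replicates 2 and 3, and 0.599 between the vehicle tumours. Combination libraries correlated with vehicle replicate 1 across genes at 0.933 to 0.966 and with vehicle replicate 2 at 0.749 to 0.767. These are bulk samples, in which fewer cells of a type and less RNA per cell cannot be told apart.

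Against both vehicle tumours together, 22 genes were called higher (0.178% of those tested) and 3 lower (0.0242%). Their adjusted p lay between 0.0467 and 0.0475, just under the threshold, and 266 genes had one under 0.06. At an unadjusted p under 0.05 there were 3804 genes. All 25 called genes lay beyond both vehicle tumours in all 3 combination tumours. Against vehicle replicate 1 alone, 11 genes were called higher (0.0889%) and 4 lower (0.0323%), of which 6 were also called against both. Against vehicle replicate 2 alone, 3136 were called higher (25.3%) and 3203 lower (25.9%). The direction differed between the 2 vehicle tumours for 41.2% of genes. All 3 combination values lay above both vehicle values for 2302 genes (18.6%) and below both for 2236 (18.1%). With a gap of at least 0.5 between the nearest values of the groups, the counts were 346 above (2.8%) and 192 below (1.55%). Relative to all 8 other libraries, single drugs included, 341 genes lay above (2.76%) and 207 below (1.67%). The 25 calls are fragile: none was made with only the 5 libraries in the fit, after quantile or median-of-ratios scaling, after a transcript length correction, or without any 1 combination tumour.

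**Figure D1:**
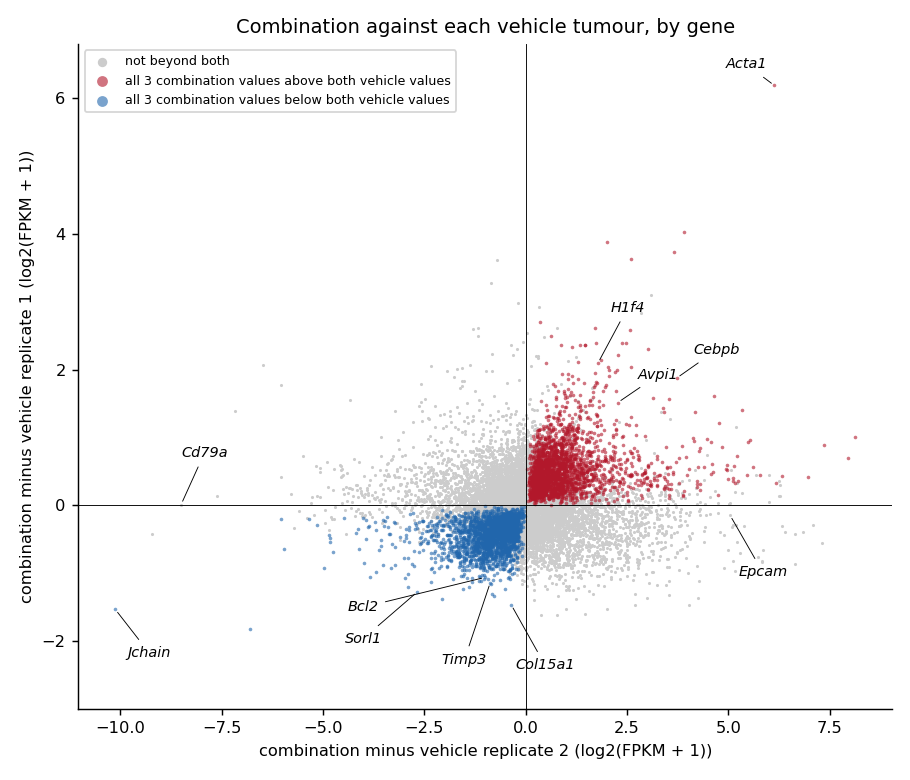
Each point is 1 of the 12376 tested genes, with the mean of the 3 combination tumours minus vehicle replicate 2 on the horizontal axis and minus vehicle replicate 1 on the vertical axis, in log2(FPKM + 1). The 2302 red genes lay above and the 2236 blue genes below both vehicle tumours in all 3 combination tumours; Epcam and Cd79a differed mainly from vehicle replicate 2, while Avpi1, H1f4 and Timp3 differed from both.

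Of 54 tested replication-dependent histone genes, 20 lay above both vehicle tumours by a gap of at least 0.5, against 2.8% of all tested genes. Replication-dependent histone genes were thus 20 of the 346 genes with that gap, and 3 of the 22 called higher. These genes encode the core and linker histones that package newly copied DNA, and their transcription is normally tied to S phase. Their transcripts usually end in a stem-loop with no poly(A) tail, so a poly(A)-selected library samples only the polyadenylated fraction. This list was drawn up after their values were seen, and 17 of its 54 tested members passed the filter only through the combination tumours. The promoters of 3 called members are shown because histone genes share short promoter elements. They cover 250 bases before to 50 bases after the start in RefSeq (GRCm38.p6), with the letters AAACACA (H1 box), TATAAA and CCAAT in capitals on either strand. H1f3 lies at chr13:23554782-23555081 on the plus strand, H1f4 at chr13:23622509-23622808 on the minus strand and H2ac6 at chr13:23683910-23684209 on the minus strand.
H1f3: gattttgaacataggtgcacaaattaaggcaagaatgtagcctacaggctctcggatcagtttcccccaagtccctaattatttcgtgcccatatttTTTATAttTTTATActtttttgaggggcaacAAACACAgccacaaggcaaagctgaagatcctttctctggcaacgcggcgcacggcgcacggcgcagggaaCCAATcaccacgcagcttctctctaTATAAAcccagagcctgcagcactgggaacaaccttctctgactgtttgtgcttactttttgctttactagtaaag
H1f4: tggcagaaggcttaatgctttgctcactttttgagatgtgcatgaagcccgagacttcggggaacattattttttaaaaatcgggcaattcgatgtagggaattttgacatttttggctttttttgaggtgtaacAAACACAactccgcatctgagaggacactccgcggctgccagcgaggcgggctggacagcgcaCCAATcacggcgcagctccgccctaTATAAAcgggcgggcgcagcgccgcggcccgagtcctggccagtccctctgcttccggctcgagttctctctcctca
H2ac6: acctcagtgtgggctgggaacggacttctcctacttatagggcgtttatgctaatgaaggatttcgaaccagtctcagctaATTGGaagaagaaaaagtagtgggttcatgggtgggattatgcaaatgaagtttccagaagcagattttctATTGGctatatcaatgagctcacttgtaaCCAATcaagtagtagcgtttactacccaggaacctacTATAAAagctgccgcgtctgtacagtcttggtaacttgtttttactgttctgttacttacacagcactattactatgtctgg

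The H1 box was found in 4 of the 4 linker histone promoters matched (100%), in 4.55% of the 44 core histone promoters and in 7.14% of 27025 promoters of all genes. CCAAT was found in 100% of the linker promoters, 84.1% of the core promoters and 37.9% of all promoters. TATAAA was found in 75%, 56.8% and 14.2% of the same sets. These matches describe the windows only.

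H1f3, a linker histone, had FPKM values of 5.25, 4.73 and 4.86 in combination tumours, against 0.35 and 0.65 in vehicle tumours. H1f4, another linker histone, had 7.28, 7.35 and 6.81 in combination tumours, against 0.90 and 1.36 in vehicle tumours. H2ac6, a core H2A gene, had 2.40, 2.88 and 3.54 in combination tumours, against 0.17 and 0 in vehicle tumours. The groups were well apart in all 3 genes, at low absolute levels. In limma H1f3 rose by 1.99 ± 0.28, H1f4 by 1.94 ± 0.24 (adjusted p = 0.0467 for both) and H2ac6 by 1.85 ± 0.28 (adjusted p = 0.0475). H1f3 and H2ac6 passed the filter on low values only through the combination tumours, where they were high, so their calls are a description. H1f4 was also called against vehicle replicate 1 alone (2.10, adjusted p = 0.0389) and against vehicle replicate 2 alone (1.79, adjusted p = 0.000504). The single drugs gave lower values for these genes: H1f4 had 2.57, 4.18 and 3.31 with palbociclib and 1.43, 2.28 and 1.06 with OPG-Fc. H1f3 had 1.55, 3.53 and 1.64 with palbociclib and 1.91, 1.05 and 0.93 with OPG-Fc.

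H4c6 and H2bc6 also passed the filter only through the combination tumours, and their values are given as a description. H4c6, a core H4 gene, had 5.63, 4.31 and 7.34 in combination tumours, against 0.78 and 0.61 in vehicle tumours (1.97 ± 0.40, adjusted p = 0.0567, not called). H2bc6, a core H2B gene, had 5.02, 4.22 and 4.25 in combination tumours, against 0.81 and 0.73 in vehicle tumours (1.63 ± 0.32, adjusted p = 0.0567, not called). H2bc12 and H4c2 were called higher against vehicle replicate 1 alone (1.91, adjusted p = 0.0389, and 1.78, adjusted p = 0.0493, in limma). H2bc23 and H2bc24 were called there too, but their values were identical in every library, so these copies cannot be told apart.

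Of the 58 histone genes in the table, 42 lay above both vehicle tumours and 1, H2ac10, below both. The filter passed 54, of which 17 passed only through the combination tumours. Among the tested members 41 lay above both, against 18.6% of all tested genes, and 22 lay above all 8 other libraries, against 2.76%. By class, all 4 tested H1 genes, 6 of 13 H2A genes, 12 of 15 H2B genes, 8 of 11 H3 genes and all 11 H4 genes lay above both. The median difference was 1.24 (1.60 from vehicle replicate 1 and 0.88 from vehicle replicate 2), against 0.0009 over all tested genes. After the length correction, 37 of 53 lay above both, against 2116 of all 12260 genes in that setting, and the median was 0.89. H1f0, a replication-independent linker histone, lay between the vehicle tumours, with 332, 349 and 325 in combination tumours, against 368 and 50.8 in vehicle tumours. Slbp, which binds the histone stem-loop, had 72.6, 51.4 and 61.4 in combination tumours, against 57.6 and 70.2 in vehicle tumours, so its groups overlapped.

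**Figure D2:**
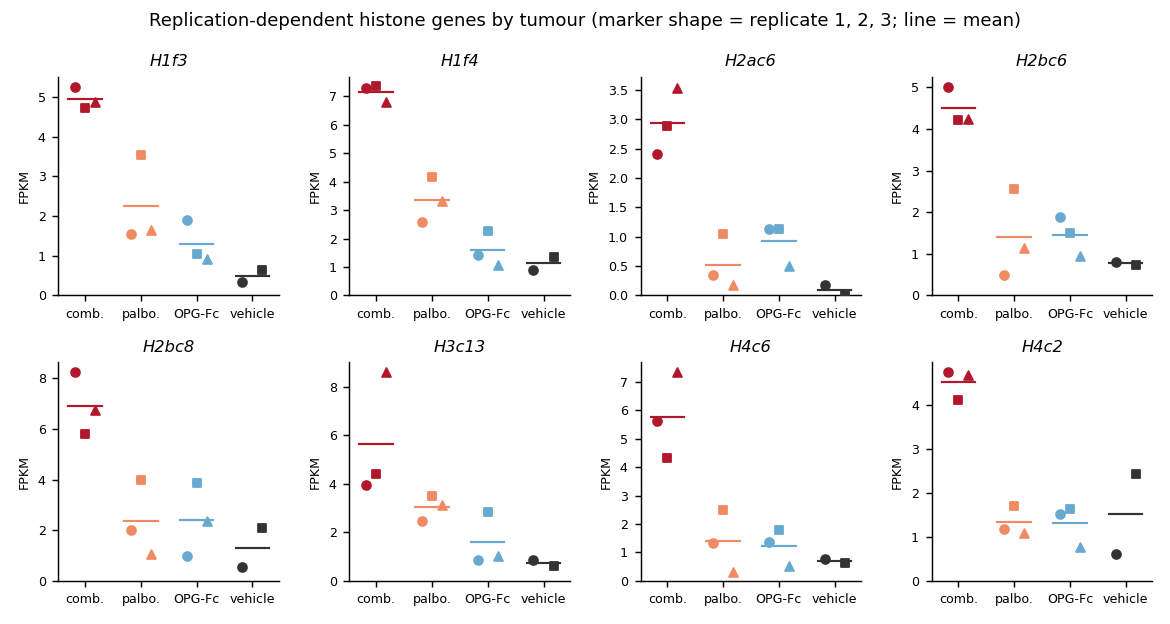
FPKM of 8 replication-dependent histone genes, picked to show each class, in each tumour of the combination, palbociclib, OPG-Fc and vehicle groups, with the group mean as a line; each axis starts at 0. The combination tumours stood above both vehicle tumours in all 8 panels, for instance at 6.81 to 7.35 for H1f4, against 0.90 and 1.36.

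Cell cycle genes other than histones were mixed. Of 41 DNA replication and G1/S genes, 10 lay above both vehicle tumours and 0 below both, and of 38 G2/M and mitosis genes, 7 lay above and 0 below. The shares above are near the 18.6% of all genes, and limma called no member of either list against both vehicle tumours (at an unadjusted p under 0.05, 16 of the 79 were higher and 1 lower). The placement depended on the vehicle tumour. For DNA replication and G1/S genes the median difference was 0.26 from vehicle replicate 1 and -0.33 from vehicle replicate 2. For G2/M and mitosis genes it was 0.22 from vehicle replicate 1 and -0.02 from vehicle replicate 2. Gins2, a subunit of the replicative helicase complex, had 60.6, 53.5 and 66.9 in combination tumours, against 35.8 and 18.9 in vehicle tumours (1.18 ± 0.24, adjusted p = 0.0567). Tk1, the thymidine kinase of S phase, had 131, 100.1 and 141 in combination tumours, against 78.5 and 47.4 in vehicle tumours (1.00 ± 0.27, adjusted p = 0.0707). Both genes stood apart without passing the test. Cenpa, the centromeric histone H3 variant, had 98.0, 68.8 and 130 in combination tumours, against 53.9 and 47.1 in vehicle tumours. Mki67, a proliferation marker, had 36.1, 21.5 and 16.9 in combination tumours, against 24.6 and 79.7 in vehicle tumours, and its groups overlapped. The absence of members below both rests on combination replicate 1: without it, 9 DNA replication genes and 11 G2/M genes lay below both. In that setting 2876 of all 12376 tested genes lay below both, so the shares of these lists were near that of all genes.

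Genes of the machinery of CDK4, CDK6 and the retinoblastoma protein showed no single direction. Cdk4 had 383, 353 and 598 in combination tumours, against 296 and 171 in vehicle tumours (0.94 ± 0.28, adjusted p = 0.0818). Cdkn1a, the CDK inhibitor p21, had 37.1, 42.8 and 36.0 in combination tumours, against 30.5 and 17.3 in vehicle tumours (0.72 ± 0.24, adjusted p = 0.0959). Both lay above both vehicle tumours and neither was called. Rbl1, the retinoblastoma relative p107, had 17.1, 14.2 and 11.7 in combination tumours, against 22.3 and 25.5 in vehicle tumours (-0.71 ± 0.19, adjusted p = 0.0706). Of 23 tested genes of this machinery, 3 lay above both (with E2f4) and 3 below (with Rbl2 and E2f3). Of all tested genes, 18.6% lay above both and 18.1% below, so neither share of this list exceeded that of all genes. Ccnd1, cyclin D1, had 282, 264 and 175 in combination tumours, against 333 and 13.1 in vehicle replicates 1 and 2, so its sign depends on the vehicle tumour (-0.50 and 4.06). The same held for Ccne1, cyclin E1, at 8.83, 7.89 and 9.02 in combination tumours, against 4.46 and 20.3 in vehicle tumours, and for Cdk6, at 8.69, 6.38 and 5.62 against 12.3 and 5.66. Rb1 had 5.24, 5.13 and 2.76 in combination tumours, against 5.15 and 17.3 in vehicle tumours. Ccne2 had 6.33, 5.82 and 2.75 in combination tumours, against 6.31 and 10.6 in vehicle tumours, and E2f1 had 18.7, 15.1 and 14.7 against 15.5 and 10.4. None of these last 3 was apart from both vehicle tumours.

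RANK and its ligand were at low levels. Tnfrsf11a had 1.71, 1.22 and 1.36 in combination tumours, against 0.89 and 2.31 in vehicle tumours. Tnfsf11 had 1.58, 2.07 and 0.36 in combination tumours, against 0.52 and 3.30 in vehicle tumours. Tnfrsf11b, endogenous osteoprotegerin, had 2.89, 4.54 and 1.45 in combination tumours, against 2.50 and 0.67 in vehicle tumours. All 3 overlapped between the groups, and the adjusted p in limma was 0.904 for Tnfrsf11a, 0.752 for Tnfsf11 and 0.296 for Tnfrsf11b. Of 18 genes of the RANK pathway, Nfatc1, Traf6, Birc2 and Ikbkg lay below both vehicle tumours, near the 18.1% of all genes, and Nfkb2 lay above both. Nfatc1, the master transcription factor of osteoclasts, had 8.43, 9.08 and 6.47 in combination tumours, against 11.1 and 43.0 in vehicle tumours. Traf6, the RANK adaptor, had 7.22, 8.24 and 5.29 in combination tumours, against 9.43 and 15.8 in vehicle tumours. Neither was called (adjusted p = 0.0907 for Nfatc1 and 0.0818 for Traf6 in limma). Of 11 tested osteoclast-type genes, 4 lay below both (18.1% of all genes did) and 0 above. The list's median difference was -0.05 (-0.25 from vehicle replicate 1 and -0.45 from vehicle replicate 2). Atp6v0d2, a proton pump subunit of osteoclasts and some macrophages, had 0.71, 1.04 and 0.51 in combination tumours, against 2.32 and 7.83 in vehicle tumours. Itgb3, the integrin beta 3 chain, had 4.52, 5.01 and 3.46 in combination tumours, against 8.45 and 7.56 in vehicle tumours.

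Other called genes covered several functions. Avpi1, a gene first described as induced by vasopressin, had 34.5, 34.3 and 40.5 in combination tumours, against 12.1 and 6.71 in vehicle tumours. It rose by 1.90 ± 0.23 (adjusted p = 0.0467), and was called against vehicle replicate 1 (1.51, adjusted p = 0.0389) and replicate 2 (2.28, adjusted p = 1.5e-05). Its values were also high with palbociclib alone (36.0, 41.6 and 42.8) and intermediate with OPG-Fc alone (19.2, 21.5 and 26.9). Rpl39l, a paralogue of a ribosomal protein, had 5.89, 5.92 and 9.72 in combination tumours, against 1.06 and 1.46 in vehicle tumours, and rose by 1.83 ± 0.24 (adjusted p = 0.0467). Rpl39 and Rpl39l are similar in sequence, so reads may be shared between them. Use1, a SNARE of Golgi-to-ER transport, had 136, 155 and 216 in combination tumours, against 59.1 and 53.03 in vehicle tumours, and rose by 1.55 ± 0.24 (adjusted p = 0.0475). Rex1bd rose by 1.52 ± 0.21 and 1190005I06Rik by 1.46 ± 0.20 (adjusted p = 0.0467 for both), although the second passed the filter only through the combination tumours. Cd99, a surface protein of leukocyte migration, had 89.9, 97.0 and 107 in combination tumours, against 32.8 and 41.3 in vehicle tumours. It rose by 1.38 ± 0.18 (adjusted p = 0.0467). Mrpl12, a mitochondrial ribosomal protein, rose by 1.22 ± 0.19 (adjusted p = 0.0475), and Polb, the DNA polymerase of base excision repair, by 0.77 ± 0.12 (adjusted p = 0.0475). Polb had 41.5, 38.05 and 41.2 in combination tumours, against 22.4 and 23.9 in vehicle tumours.

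The 3 genes called lower were Ube2h, Tbc1d1 and Pitpnc1. Ube2h, a ubiquitin-conjugating enzyme, had 20.5, 20.7 and 23.7 in combination tumours, against 38.7 and 57.5 in vehicle tumours, and fell by 1.09 on the log2 scale (SE 0.17, adjusted p = 0.0475). Tbc1d1, a Rab GTPase-activating protein of glucose transporter traffic, had 18.6, 18.1 and 17.2 in combination tumours, against 33.8 and 38.3 in vehicle tumours, and fell by 0.97 (SE 0.13, adjusted p = 0.0467). Pitpnc1, a phosphatidylinositol transfer protein, had 6.34, 6.61 and 6.73 in combination tumours, against 12.4 and 14.9 in vehicle tumours, and fell by 0.95 (SE 0.14, adjusted p = 0.0475). In all 3 the combination tumours also lay below every single-drug tumour, as in Tbc1d1, at 21.0, 19.9 and 22.2 with palbociclib and 23.9, 26.7 and 22.4 with OPG-Fc. The length correction left these differences smaller, at -0.98 for Ube2h, -0.64 for Tbc1d1 and -0.62 for Pitpnc1.

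Further genes had a wide gap without being called. Sorl1, a sorting receptor, had 5.00, 3.76 and 3.20 in combination tumours, against 10.9 and 30.4 in vehicle tumours (-1.97 ± 0.37, adjusted p = 0.0549). Slc2a3, the glucose transporter GLUT3, had 2.02, 1.91 and 1.53 in combination tumours, against 4.57 and 12.4 in vehicle tumours (-1.62 ± 0.31, adjusted p = 0.0549). Etnk1, an ethanolamine kinase, had 30.3, 26.8 and 25.6 in combination tumours, against 57.5 and 85.0 in vehicle tumours (-1.32 ± 0.21, adjusted p = 0.0537). Every combination tumour lay under the lower vehicle tumour in these genes. Cbl, a ubiquitin ligase of receptor tyrosine kinases, Xrn1, the cytoplasmic 5′ to 3′ exonuclease, Rere, a nuclear corepressor, Zfp871 and the interferon-inducible GTPase Gvin2 were placed likewise, at -1.73, -1.03, -1.49, -1.38 and -1.13. After the length correction Sorl1 was at -1.43, Etnk1 at -1.23, Cbl at -1.62, Xrn1 at -0.78 and Zfp871 at -0.97. In the other direction, Slc2a3 moved to -1.93 and Rere to -1.67. Ecrg4, a secreted peptide precursor, lay above both, with 13.9, 13.7 and 15.7 in combination tumours, against 4.20 and 0.33 in vehicle tumours. In 2 genes of cell survival the groups also stood apart: Bcl2, the antiapoptotic founder of its family, had 7.96, 6.22 and 9.40 in combination tumours, against 17.3 and 16.6 in vehicle tumours (-1.03 ± 0.19, adjusted p = 0.0537). Bad, a proapoptotic member, had 43.5, 43.8 and 64.9 in combination tumours, against 28.2 and 26.8 in vehicle tumours (0.83 ± 0.20, adjusted p = 0.0625). Neither passed. Of 27 tested p53 targets and BCL2 family genes, 4 lay above both (18.6% of all genes did) and 5 below (18.1% did).

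Some vascular genes lay low in combination tumours. Of 23 endothelial markers, 8 lay below both vehicle tumours (18.1% of all genes did) and 0 above, and limma called none against both (10 were lower at an unadjusted p under 0.05). Flt4 and Vwf, among these 8, passed the filter only through the vehicle tumours. Kdr, the main VEGF receptor, had 2.26, 1.63 and 1.83 in combination tumours, against 3.79 and 7.97 in vehicle tumours (-1.18 ± 0.26, adjusted p = 0.0594). Cdh5, the cadherin of endothelial junctions, had 10.1, 9.23 and 7.91 in combination tumours, against 15.3 and 17.7 in vehicle tumours (-0.80 ± 0.19, adjusted p = 0.0616). Erg, an endothelial transcription factor, had 1.5, 1.47 and 0.76 in combination tumours, against 2.98 and 2.90 in vehicle tumours. The groups stood apart in these 3 genes, and Mmrn2, Flt4, Vwf, Pecam1 and Tie1 were placed likewise. The list's median difference was -0.40 (-0.12 from vehicle replicate 1 and -0.44 from vehicle replicate 2), and its summed FPKM was 228, 229 and 273 in combination tumours, against 251 and 323 in vehicle tumours, so the sums overlapped with vehicle replicate 1. After the length correction the median difference was smaller, at -0.20. Palbociclib tumours lay at similar levels, with Kdr at 1.80, 1.64 and 1.95, and OPG-Fc tumours higher, with Kdr at 7.61, 5.63 and 5.56. Among mural cell genes, Abcc9, a potassium channel subunit of pericytes, had 1.46, 1.18 and 0.84 in combination tumours, against 2.97 and 3.91 in vehicle tumours, and Rgs5 had 15.4, 9.68 and 11.01, against 20.0 and 34.2. In all, 3 of 15 tested pericyte and smooth muscle genes lay below both (with Notch3), near the 18.1% of all genes, and 1, Tagln, above both.

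Some matrix genes lay low too. Col15a1, a basement membrane collagen, had 10.0, 10.97 and 9.30 in combination tumours, against 29.6 and 13.2 in vehicle tumours. It fell by 1.47 against vehicle replicate 1 (adjusted p = 0.0389) and was not called against both (-0.91 ± 0.27, adjusted p = 0.0817). Nid1, the basement membrane linker nidogen, had 15.6, 11.3 and 11.1 in combination tumours, against 33.2 and 22.4 in vehicle tumours (-1.07 ± 0.21, adjusted p = 0.0567). Of 20 tested basement membrane genes, 4 lay below both and 0 above, a share near that of all genes. Timp3, a matrix-bound metalloproteinase inhibitor, had 7.47, 7.38 and 7.35 in combination tumours, against 17.5 and 14.4 in vehicle tumours (-1.01 ± 0.17, adjusted p = 0.0537). Aoc3, an amine oxidase of vessels and fat, had 3.76, 2.55 and 3.49 in combination tumours, against 7.93 and 9.69 in vehicle tumours. Both were clear of the vehicle range. Col1a1 had 225, 167 and 163 in combination tumours, against 384 and 70.4 in vehicle tumours, so it lay between the vehicle tumours.

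Complement genes outside C1q lay low as well. Of 17 tested, 8 lay below both vehicle tumours (18.1% of all genes did) and 0 above, and limma called none against both (10 were lower at an unadjusted p under 0.05). C1s1, the protease of the first complement complex, had 16.9, 18.2 and 18.2 in combination tumours, against 26.4 and 80.0 in vehicle tumours. Serping1, its inhibitor, had 71.4, 55.6 and 78.5 in combination tumours, against 99.2 and 155 in vehicle tumours. C4b had 13.4, 6.96 and 20.6 in combination tumours, against 30.1 and 100.7 in vehicle tumours. The distance was wide from vehicle replicate 2 and narrow from vehicle replicate 1, with list medians of -1.88 and -0.44. Stromal cells make many of these proteins, and vehicle replicate 2 also held lymph node stroma transcripts, with a summed FPKM of 124, 119 and 184 over 10 markers in combination tumours, against 129 and 2371 in vehicle replicates 1 and 2. The part of that tissue in the result was not tested.

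Genes of the unfolded protein response lay on both sides. Of 23 tested, 11 lay below both vehicle tumours (18.1% of all genes did) and 3 above (18.6% did). Those below were Hspa5, Hsp90b1, Hyou1, Pdia4, Pdia6, Dnajb9, Dnajc3, Edem1, Sel1l, the stress sensor Ern1 and the regulator Crebrf. Hspa5, the ER chaperone BiP, had 466, 462 and 283 in combination tumours, against 594 and 584 in vehicle tumours. Hsp90b1, its partner GRP94, had 353, 314 and 231 in combination tumours, against 492 and 1114 in vehicle tumours. Hyou1, another ER chaperone, had 20.3, 20.0 and 15.2 in combination tumours, against 29.3 and 77.9 in vehicle tumours. The 3 above were Ddit3, Trib3 and Asns. Ddit3, the transcription factor CHOP, had 27.6, 37.8 and 37.9 in combination tumours, against 21.0 and 12.6 in vehicle tumours. Trib3, a pseudokinase induced by CHOP, had 18.7, 27.1 and 20.6 in combination tumours, against 14.5 and 1.05 in vehicle tumours. Asns, asparagine synthetase, had 28.3, 29.5 and 19.5 in combination tumours, against 16.6 and 13.1 in vehicle tumours. Atf3 and Chac1, also induced by ER stress, overlapped between the groups. None of the 6 genes with values here was called, with an adjusted p in limma from 0.0616 for Hsp90b1 to 0.118 for Hspa5. The list's median was 0.06 from vehicle replicate 1 and -1.38 from vehicle replicate 2, which held plasma cell RNA (Jchain at 0.72, 1.53 and 8.97 in combination tumours, against 9.19 and 3925 in vehicle replicates 1 and 2). Plasma cells are rich in ER chaperones, and their part in the distance from vehicle replicate 2 was not tested.

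**Figure D3:**
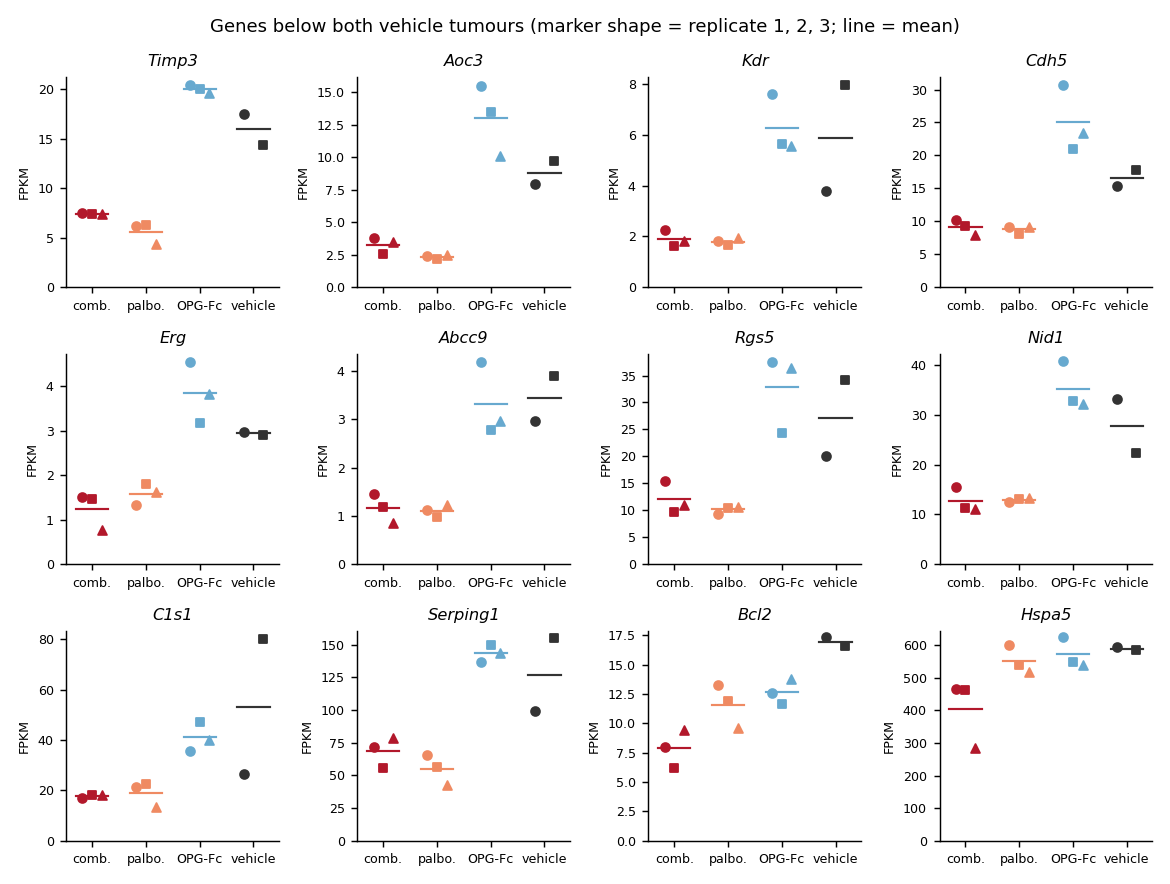
FPKM of 12 genes of vessels, matrix, complement, cell survival and the ER, picked after their values were seen, in each tumour of the combination, palbociclib, OPG-Fc and vehicle groups, with the group mean as a line; each axis starts at 0. The combination tumours lay below both vehicle tumours in every panel, for instance at 1.63 to 2.26 for Kdr, against 3.79 and 7.97.

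Housekeeping machinery formed the broadest group on the upper side. Over all tested genes, 18.6% lay above both vehicle tumours and 18.1% below both. Of 79 cytosolic ribosomal protein genes, 71 lay above both vehicle tumours and 0 below, with a median difference of 0.78. Rpl36 had 2272, 2825 and 5034 in combination tumours, against 801 and 668 in vehicle tumours (2.12 ± 0.34, adjusted p = 0.0525). Of 74 nuclear-encoded respiratory chain genes, 44 lay above and 0 below (median 0.49). Ndufb9, a complex I subunit, had 400.3, 431 and 592 in combination tumours, against 216 and 122 in vehicle tumours. Of 31 proteasome genes, 18 lay above and 0 below (median 0.48), and of 77 mitochondrial ribosomal protein genes, 44 lay above and 1 below (median 0.42). Only Mrpl12 of these 4 lists was called against both. Ribosomal protein genes took 27.6%, 29.9% and 35.2% of the summed FPKM in combination tumours, against 21.8% and 21.8% in vehicle tumours. The share was similar with palbociclib alone (28.1%, 33.5% and 28.1%) and lower with OPG-Fc alone (20.95%, 24.1% and 24.2%). Only 1 of the 79 genes lay above every single-drug tumour in all 3 combination tumours. Under quantile normalization, 33 of the 79 ribosomal genes lay above and 7 below (median 0.14), and 28 of the 74 respiratory genes lay above and 4 below. Of all 12376 tested genes, 2004 lay above and 2431 below in that setting.

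Transcript length moved with the whole comparison, and the genes of these lists are short, with a median transcript of 697 bases for the cytosolic ribosomal and 539 for the histone genes. In the quartile of genes with the shortest transcripts, 34.5% lay above both vehicle tumours and 8.97% below both. In the quartile with the longest, 3.88% lay above and 34.98% below. The median difference was 0.29 in the shortest quartile and -0.29 in the longest. Of the 5 libraries, combination replicate 3 had the strongest tilt, with median FPKM values of 25.2 for short and 6.52 for long genes, against 19.0 and 10.3 in vehicle replicate 1. After correction by a spline on length, 63 of 79 ribosomal, 28 of 74 respiratory, 13 of 31 proteasome and 33 of 77 mitochondrial ribosomal genes still lay above both. Of all 12260 genes in that setting, 2116 lay above both. The part of RNA quality in this tilt was not tested.

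**Figure D4:**
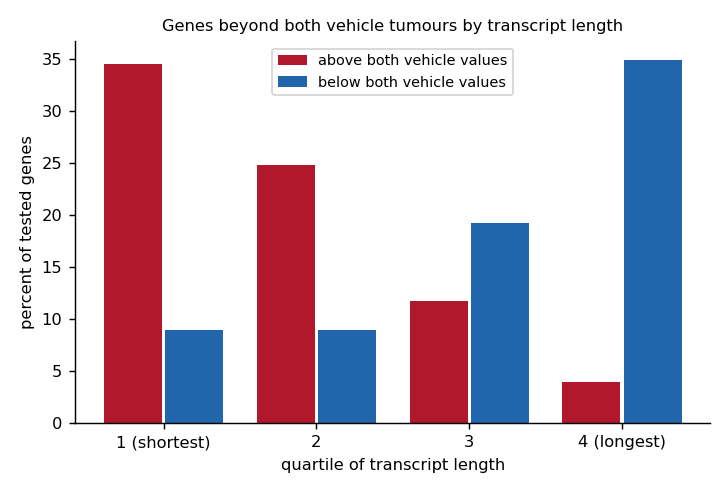
Percent of tested genes whose 3 combination values all lay above (left bar) or below (right bar) both vehicle values, by quartile of transcript length from shortest to longest. The share above was 34.5% in the shortest and 3.88% in the longest quartile, and the share below was 8.97% and 34.98%.

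The widest gaps of all belonged to skeletal muscle genes, markers of a tissue next to the implant site. Acta1, skeletal muscle actin, had 149, 132 and 22.1 in combination tumours, against 0.06 and 0.10 in vehicle tumours (6.16 ± 1.17, adjusted p = 0.0549). Ckm, muscle creatine kinase, had 33.3, 11.8 and 5.45 in combination tumours, against 0.06 and 0.11 in vehicle tumours, and Tnnc2, fast troponin C, had 43.3, 16.8 and 4.59, against 0 and 0.10. Acta1, Ckm and Tnnc2 passed the filter only through the combination tumours, so their values are a description. Of 21 muscle markers in the table, 13 lay above both and 0 below, and 8 of the 14 that passed the filter did so only through the combination tumours. Among those 14, 11 lay above both, against 18.6% of all tested genes. The 21 summed to 527, 355 and 112 in combination tumours, against 38.2 and 13.5 in vehicle tumours. Single-drug tumours spanned 71.5 to 468, so muscle RNA was low in the vehicle tumours and varied widely elsewhere. Of 24 skin keratinocyte genes, 12 were tested, 8 of them through the combination tumours only, and 5 lay above both (18.6% of all tested genes did). The 22 skin genes in the table summed to 73.0, 92.3 and 12.1 in combination tumours, against 9.53 and 21.45 in vehicle tumours, so the sums overlapped. The part of host muscle and skin in these values was not tested.

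**Figure D5:**
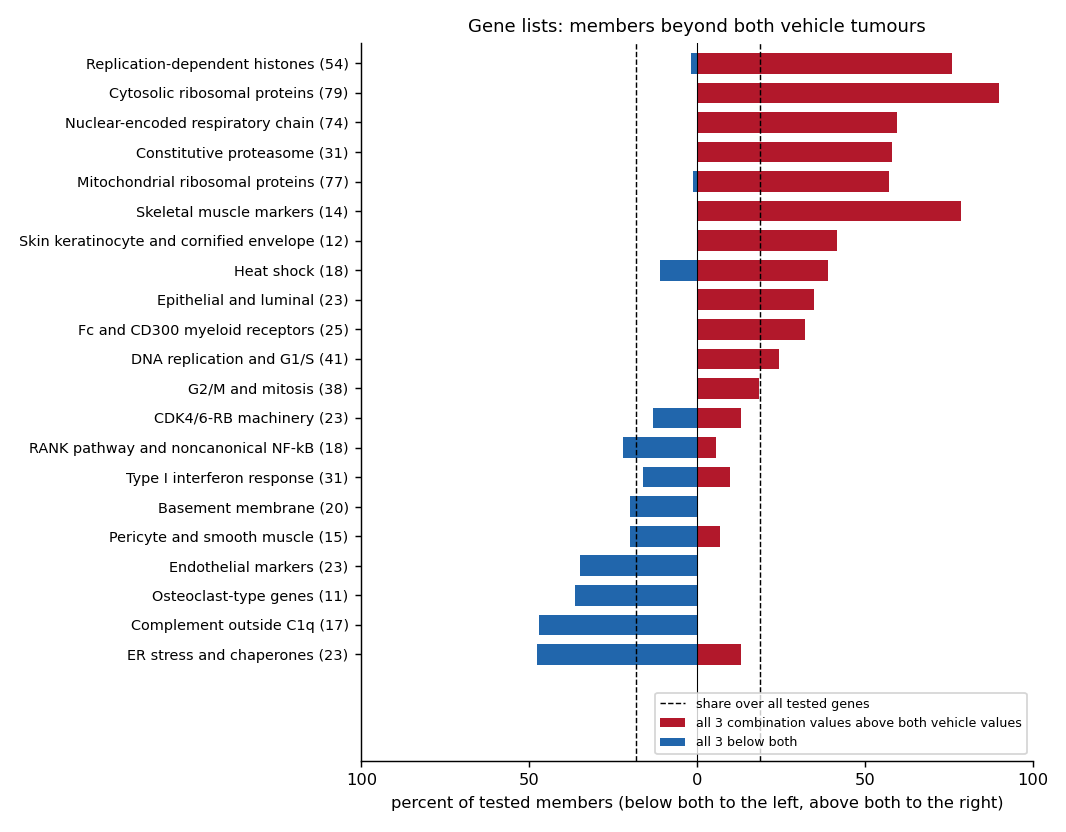
Percent of the tested members of 21 gene lists (number tested in brackets) whose 3 combination values all lay above both vehicle values (right, red) or below both (left, blue), beside the shares over all 12376 tested genes (dashed, 18.6% above and 18.1% below). Histone, ribosomal and muscle genes reached furthest to the right, and complement and ER stress genes furthest to the left. Of the tested members, 17 of 54 histone, 8 of 14 muscle and 8 of 12 skin genes passed the filter only through the combination tumours, which lengthens their bars to the right.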

How the data were processed

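RNA from whole tumours was enriched for poly(A) and sequenced, per the labels' protocols. HISAT, Bowtie2 and RSEM, with builds GRCm39 and mm39, are named in the submitters' processing notes, without versions. The authors deposited FPKM in 1 table of 17181 genes and 11 libraries. FPKM divides by the library's total, so a large class such as ribosomal protein genes shifts every other gene.

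Values were taken as log2(FPKM + 1). All 11 libraries were fitted by group with limma 3.58.1 (R 4.3.3, variance trend), because 4 groups give a steadier spread than 2. The combination was set against both vehicle libraries and against each alone, where 1 vehicle library takes its spread from the other groups. The fit was tested on simulated data whose spread came from the treated libraries only. The difference between the vehicle tumours was left out, so that test cannot show how the fit handles it. Transcript lengths came from an annotation of GRCm38, matched for 99.1% of tested genes, and promoters from RefSeq. Members, gene lists and tests were chosen with earlier results of these data known. Genes were named by a rule: the 12 with the widest gap in each direction, the 8 largest called folds, a panel of 12 pathway genes, and up to 5 members per list. Other names were chosen after their values were seen, including Cd99, Polb, Cebpb, Col1a1, H1f0 and Slbp. Replicate numbers were not taken as pairs in the main fit. Alternatives are given in the closing section.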

Additional observations from a re-analysis of the deposited data

How the results depend on the processing

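The call of 25 genes against both vehicle tumours was lost under most settings. It was 240 (178 higher, 62 lower) with an FPKM filter of 5, and 0 with no filter, quantile normalization, median-of-ratios scaling, the length correction, averaging of libraries sharing a number, only the compared libraries, no variance trend or array weights (662 to 4253 genes at an unadjusted p under 0.05 in limma). Leaving out 1 library gave 0 to 6339, with 15 without vehicle replicate 2 and 6339 without vehicle replicate 1. The 15 calls against vehicle replicate 1 became 53 with a pseudocount of 0.1, 0 with no filter, 58 with the FPKM filter of 5, 65 with quantile normalization, 2 with the length correction, 2104 with array weights, and 0 with median-of-ratios scaling, averaging, only the compared libraries or no variance trend (1551 to 3117 at an unadjusted p under 0.05); leaving out 1 combination library gave 0 to 64. The 6339 calls against vehicle replicate 2 stayed within 1.5 times, at 6010 to 6710 when 1 combination library was left out. Leaving out 1 library gave 5169 to 10211 genes beyond both vehicle tumours (4538 with all), and 729 to 5678 with a gap of at least 0.5 (538 with all).

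The labels do not say that same-numbered tumours of different groups are paired. Deviations of same-numbered combination and vehicle libraries from their group means correlated at -0.021 and -0.231. With only 2 vehicle libraries, the other vehicle library gives the same values with the sign turned (0.021 and 0.231). These correlations therefore cannot show whether the numbers pair tumours. With a replicate block, 0 genes were called against both vehicle tumours (2909 at an unadjusted p under 0.05) and 0 against vehicle replicate 1 (1549). Of 631 values of 40 named genes under the alternatives, 447 kept direction and side of the threshold, 141 lost the call, 34 gained it and 9, in 5 genes, changed sign. Tnfrsf11a was at 0.26 with the length correction, 0.016 without combination replicate 2 0.36 without vehicle replicate 2 and -0.45 without vehicle replicate 1. Tnfsf11 was at 0.062 with array weights, 0.14 without combination replicate 3, 0.54 without vehicle replicate 2 and -0.96 without vehicle replicate 1. Without vehicle replicate 2, Ccnd1 was at -0.50, Ccne1 at 0.81 and Cdk6 at -0.77, and without vehicle replicate 1 they were at 4.06, -1.15 and 0.23. The cause was not tested. Depth is unknown, so values near an FPKM of 1 carry an error that cannot be stated.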

Other observations

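Gene groups outside the comparisons above were placed as follows. In the mevalonate branch of sterol synthesis, Fdps, farnesyl diphosphate synthase, had FPKM values of 111, 115 and 112 in combination tumours, against 57.0 and 30.8 in vehicle tumours (1.40 ± 0.23, adjusted p = 0.0537 in limma). Mvk, mevalonate kinase, had 14.1, 16.3 and 18.4 in combination tumours, against 8.43 and 8.18 in vehicle tumours (0.88 ± 0.17, adjusted p = 0.0537). Of 25 sterol genes, 5 lay above both vehicle tumours (Fdps, Mvk, Pmvk, Tm7sf2 and Mvd), near the 18.6% of all genes, and 3 below both. The list's median difference was 0.03 (-0.14 from vehicle replicate 1 and 0.30 from vehicle replicate 2).

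Of 25 tested Fc and CD300 family genes, 8 lay above both vehicle tumours (18.6% of all genes did) and 0 below. The list's median was 0.52 from vehicle replicate 1 and -0.16 from vehicle replicate 2. In all 3 combination tumours 10 members lay below vehicle replicate 2, and 7 were called lower against it alone. Clec4n, the lectin Dectin-2, had 80.5, 79.0 and 69.8 in combination tumours, against 37.3 and 61.8 in vehicle tumours. Cebpb, a transcription factor of myeloid and epithelial cells, had 107, 146 and 207 in combination tumours, against 39.6 and 10.2 in vehicle tumours (2.80 ± 0.48, adjusted p = 0.0537). Of 31 tested type I interferon genes, 3 lay above both (18.6% of all genes did) and 5 below (18.1% did). The list's median was -0.29 from vehicle replicate 1 and 0.60 from vehicle replicate 2.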
